A study of Homo sapiens with 3 samples.

Results

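The zinc-finger gene clusters of chromosome 19 were examined as 3 stretches of a capture design, at 19.7 to 24.4 Mb, 52.3 to 54.2 Mb and 56.3 to 59.1 Mb of hg19. They are called the first, the second and the third cluster here. Every target interval that lay fully inside a stretch was a member, so membership rested on position and used no measured value. The members were 1451 of the 377858 intervals of the design (0.384%) and 7.85% of the 18478 on chromosome 19, with 370 in the first cluster, 387 in the second and 694 in the third. The design was made to enrich RNA of K562 cells, an established line from a human chronic myeloid leukaemia, at the ends of introns, where splicing branchpoints can be read. There is 1 group of 3 libraries, biological replicates of this line with no drug or genetic treatment named in the labels, with ERCC spike-in RNA at 1% in replicates 1 and 2 and at 1.08% in replicate 3. The interval list belongs to all 3 libraries, and read depths and captured reads were not analysed here. The list therefore has no value per library and no replicate error, and its counts are a census without a test. Differences are given beside the spread (SD) over the 3 clusters or the range over windows of 0.5 Mb.

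KRAB zinc-finger proteins are repressors that bind DNA through a tandem array of C2H2 zinc fingers and recruit the corepressor TRIM28 through the KRAB domain. Many of them silence transposable elements, and the family grew by tandem duplication, which left most of its human members in clusters on chromosome 19. In the typical gene the KRAB A box and the KRAB B box each have a short exon of their own, and one long last exon codes for all the fingers. The design targeted the 100 nt at each end of an intron and left exons out, so a short exon appears in the list as a gap between neighbouring intervals. Such a gap is 1 nt longer than the exon in this list.

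The exon lengths of the family were read from GENCODE release 29. In its zinc-finger genes on chromosome 19 the commonest pair of neighbouring internal exons was 127 nt followed by 96 nt, present in 80 genes. These are the lengths of the KRAB A and KRAB B exons, so the corresponding gaps are 128 nt and 97 nt. That release lies on another build (GRCh38), and no position was carried over. Genes were named by lengths alone: a gene was named where a run of exon, intron and exon in the list had 3 lengths that occur together in exactly 1 gene of the annotation. Of 782 such runs in the clusters, 269 matched, against 6, 7 and 11 when the intron was taken as 2 nt shorter, 1 nt shorter or 1 nt longer. The 269 comprised 246 that named 1 gene of chromosome 19, 19 whose lengths several genes share, 2 with no symbol and 2 that pointed to another chromosome. The named matches gave 114 genes. Their order along the list was that of the annotation for 32 of 32 genes in the first cluster, 30 of 30 in the second and 52 of 52 in the third. The matches covered 731 of the 1451 intervals (50.4%). The remaining intervals are given by position.

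The KRAB exons are shown for 1 gene of each cluster, the named gene with the highest mean score beside a 128 nt and 97 nt pair. The sequences are the spliced exons of GENCODE 29 transcripts, printed 5′ to 3′ on the strand of the gene. Capitals mark positions identical in all 3 genes. The KRAB A exons correspond to the 128 nt gaps at chr19:21558040-21558167 (hg19, plus strand) for ZNF738, chr19:52521620-52521747 (minus strand) for ZNF614 and chr19:58697079-58697206 (plus strand) for ZNF274.
ZNF738 KRAB A exon: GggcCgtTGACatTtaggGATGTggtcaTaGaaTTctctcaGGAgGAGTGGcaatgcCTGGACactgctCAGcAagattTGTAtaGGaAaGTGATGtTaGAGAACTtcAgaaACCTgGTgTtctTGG
ZNF614 KRAB A exon: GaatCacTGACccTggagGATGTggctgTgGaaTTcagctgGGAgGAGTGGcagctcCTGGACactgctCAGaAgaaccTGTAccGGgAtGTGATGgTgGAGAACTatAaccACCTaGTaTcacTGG
ZNF274 KRAB A exon: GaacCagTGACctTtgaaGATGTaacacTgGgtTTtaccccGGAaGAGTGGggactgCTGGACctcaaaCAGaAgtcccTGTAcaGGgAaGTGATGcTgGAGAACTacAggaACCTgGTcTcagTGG
The KRAB B exons of the same genes correspond to the 97 nt gaps at chr19:21558671-21558767, chr19:52521260-52521356 and chr19:58698314-58698410.
ZNF738 KRAB B exon: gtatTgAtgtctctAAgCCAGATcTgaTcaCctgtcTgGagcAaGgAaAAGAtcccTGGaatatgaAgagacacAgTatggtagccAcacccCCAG
ZNF614 KRAB B exon: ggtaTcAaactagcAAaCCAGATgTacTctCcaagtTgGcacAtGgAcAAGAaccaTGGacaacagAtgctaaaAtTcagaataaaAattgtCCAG
ZNF274 KRAB B exon: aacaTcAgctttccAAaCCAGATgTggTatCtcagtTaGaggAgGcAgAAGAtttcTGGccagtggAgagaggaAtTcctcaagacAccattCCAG
All of these exons are wholly coding in the transcripts used. The 3 KRAB A exons shared 67 of 127 positions (52.8%), and the 3 KRAB B exons shared 33 of 96 (34.4%). The closest pair of KRAB A exons was ZNF614 and ZNF274, with 70.1% identical positions.

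The size of the KRAB A exon was the commonest short gap in all 3 clusters, although the length alone does not make each such gap a KRAB A exon. A gap of 128 nt was the commonest length of up to 1000 nt in each, with 33 of 196 gaps (16.8%) in the first cluster, 29 of 182 (15.9%) in the second and 37 of 367 (10.1%) in the third. Over the whole list 0.56% of such gaps have this length, and in the rest of chromosome 19 1.06% (123 of 11588). The neighbouring length of 127 nt had 8 gaps in the clusters together, against 99 of 128 nt. Gaps of 97 nt, the KRAB B size, numbered 26 (13.3%) in the first cluster, 5 (2.75%) in the second and 14 (3.81%) in the third, against 0.665% over the whole list and 0.803% in the rest of the chromosome. The first cluster thus had nearly as many B-sized as A-sized gaps, and the second had 5 against 29. Both sizes together made up 19.3% of the short gaps in the clusters and 1.86% in the rest of the chromosome. The difference of 17.5 percentage points exceeded the SD of 8.32 over the 3 clusters. Both lengths were taken from annotated zinc-finger genes of the same chromosome, so this excess is no independent finding. Of the 123 gaps of 128 nt outside the clusters, 69 lay in 4 other stretches of chromosome 19 known to hold zinc-finger genes. They made up 5.06% of the short gaps there, and gaps of 97 nt made up 1.39%. Without these stretches the share of 128 nt gaps in the rest was 0.528% (54 gaps).

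**Figure D1:**
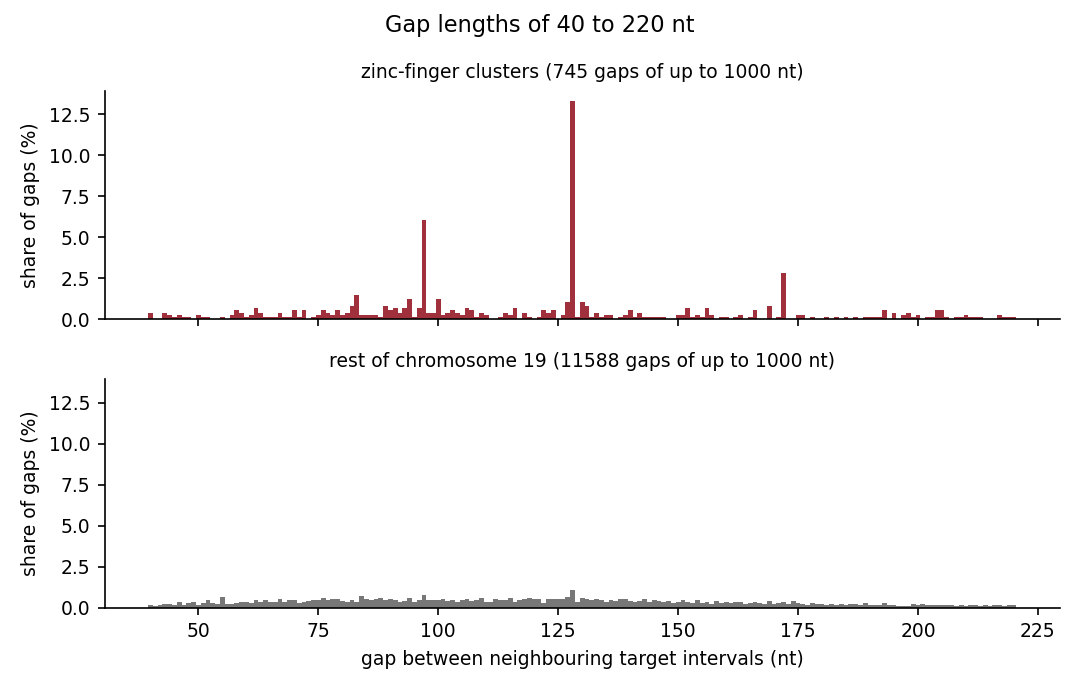
Share of gaps (y axis, % of gaps of up to 1000 nt) at each gap length from 40 to 220 nt (x axis) in the 3 zinc-finger clusters together (top) and in the rest of chromosome 19 (bottom). The clusters have spikes at 128 nt (13.3%), 97 nt (6.04%) and 172 nt (2.82%), and the rest of the chromosome has no length above 1.06%.

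An exon of 96 nt followed the KRAB A exon in named genes of every cluster, beside other lengths. In the first cluster the A exon was followed by an exon of 96 nt in 20 named genes, among them ZNF91, known as a repressor of SVA elements, and ZNF93, known as a repressor of LINE-1 elements. A following exon of 99 nt was found there in 6 genes (ZNF43, ZNF85, ZNF100, ZNF430, ZNF493 and ZNF714) and one of 61 nt in ZNF14. In the second cluster 5 genes had 96 nt (ZNF350, ZNF432, ZNF614, ZNF615 and ZNF649), while 6 had 129 nt (ZNF160, ZNF480, ZNF528, ZNF610, ZNF766 and ZNF841). The exon before the A exon was 82 nt in 6 genes of the second cluster (ZNF83, ZNF331, ZNF578, ZNF610, ZNF611 and ZNF808) and 88 nt in 4 more (ZNF468, ZNF616, ZNF765 and ZNF813). In the third cluster 10 genes had the 96 nt exon after the A exon, ZNF274, ZNF264 and ZFP28 among them, and the 9 others with a matched next exon had 8 different lengths of it. Whether the clusters differ in these lengths was not tested.

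A KRAB A gap and a KRAB B gap with 1 intron of up to 20 kb between them formed 41 pairs in the clusters, 24 in the first, 5 in the second and 12 in the third. The rest of chromosome 19 held 14 pairs and all other chromosomes together 46. Per Mb there were 5.11 pairs in the first cluster, 2.63 in the second and 4.29 in the third, against 0.326 in the rest of the chromosome. Of the 14 pairs of the rest, 8 lay in its 4 other zinc-finger stretches, at 1.21 per Mb. The intron between the 2 boxes had a median length of 810 nt in the first cluster (481 to 1741 nt), 284 nt in the second (246 to 896 nt) and 1423.5 nt in the third (117 to 11395 nt). The order of the pair gives the strand of the gene, although the list puts every interval on the plus strand: A before B reads as plus, B before A as minus. For the 35 named pairs the order is part of the match to the annotation, so their strand is no separate check. In the first cluster 12 pairs read as plus and 12 as minus, and 8 of 23 neighbouring pairs had the same order. All 5 pairs of the second cluster read as minus, with a median spacing of 28 kb, and all lay between 52399624 and 52544959. They do not stand for the whole cluster. Of its 24 named genes with a matched exon of KRAB A size, 11 were on the plus strand and 13 on the minus strand. The third had 9 plus and 3 minus pairs, and 8 of 11 neighbours had the same order.

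Scores beside the paired boxes were mostly under 10, as they were over the whole list. The deposited score is a whole number from 0 to 125 of unstated meaning. Scores of 10 to 49 made up 14% of all cluster intervals and 15.4% of the whole list. Scores of 50 or more made up 2.83% and 3.05%. The median over pairs of the mean score of the flanking intervals was 1 in the first cluster, 2.25 in the second and 1.12 in the third, against 1.62 over the 14 pairs in the rest of chromosome 19. In 8 of the 41 pairs every interval scored 0, as in 4 of those 14. Over all gaps of 128 nt, paired or not, the bordering intervals averaged 1.56 in the first cluster, 8.43 in the second and 4.55 in the third, against 5.12, 6.57 and 7.9 for the other intervals of the same cluster. By the mean they were thus lower than the others in the first and the third cluster and higher in the second. In the third cluster the median went the other way, at 2 against 0. There 35.1% of the bordering intervals scored 0, against 52.4% of the others. In the first cluster the 4 intervals of ZNF738 scored 6, 2, 5 and 11, those of ZNF431 scored 1, 2, 18 and 2, and those of ZNF675 scored 11, 1, 7 and 1. ZNF254 tied with ZNF675 at a mean of 5, with scores of 4, 0, 1 and 15. Each of these 4 pairs had at least 1 interval with a score of 2 or less. The intervals of ZNF614, the highest pair of the second cluster, scored 4, 6, 3 and 5. ZNF649 followed with 2, 4, 4 and 4, and ZNF432 with 4, 2, 2 and 1. The highest of the 41 pairs was that of ZNF274 in the third cluster, with 10, 8, 25 and 3. ZNF274 is a KRAB zinc-finger protein known to bind the finger-coding ends of other zinc-finger genes. Within the third cluster ZNF264 came next with 4, 19, 0 and 1, and then an unnamed pair at chr19:58796983-58797672 with 3, 2, 0 and 2. ZNF91 had 1, 1, 0 and 0, and ZNF93 had 5, 2, 6 and 5.

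**Figure D2:**
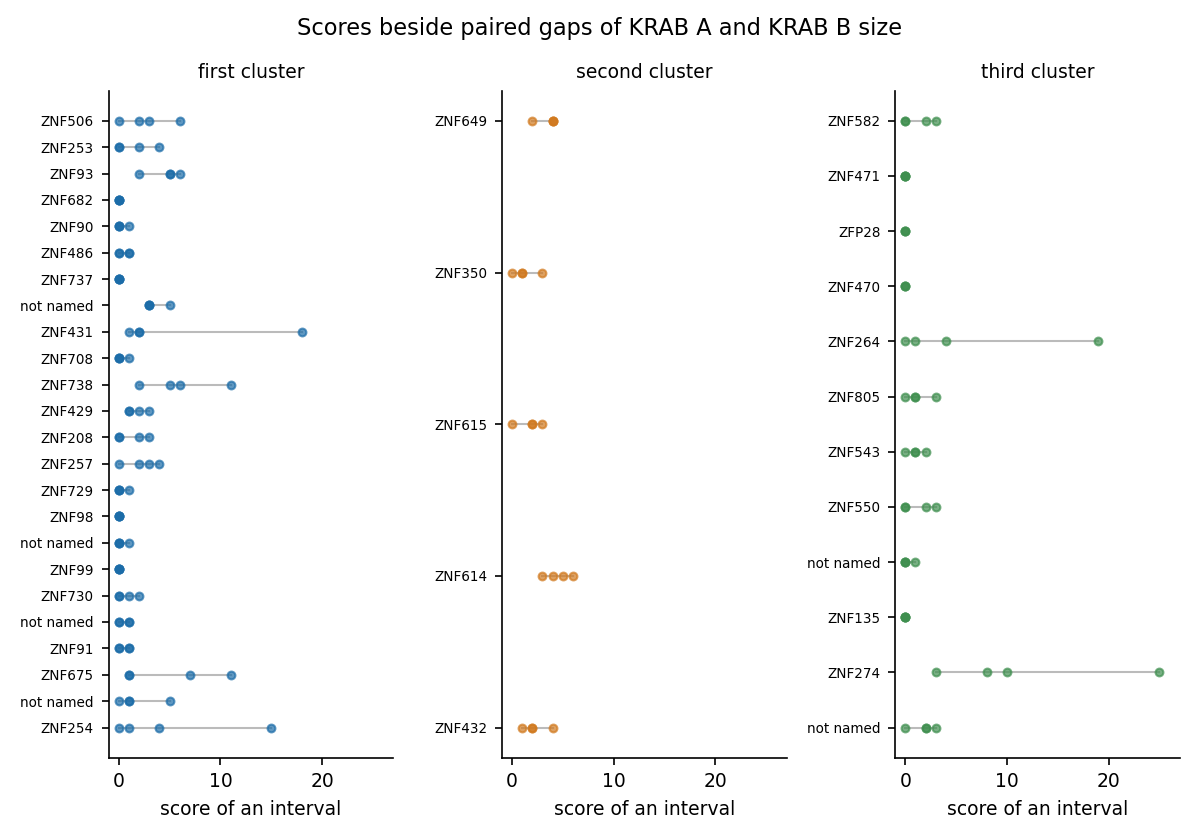
Score (x axis, no unit) of each interval beside a paired gap of KRAB A and KRAB B size, 1 row per pair in the order of the chromosome; points are single intervals and the line joins the lowest and the highest. Most points lie under 10, as do most scores of the whole list, and the highest is the 25 beside ZNF274 in the third cluster.

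The clusters scored lower than the rest of chromosome 19. The mean score was 4.48 in the first cluster, 6.84 in the second and 7.54 in the third, or 6.29 ± 1.6 (SD over n = 3 clusters), against 13.3 over the 17027 intervals of the rest. The pooled clusters differed from the rest by -6.76, more than the SD of 1.6 over clusters. That SD leaves out the spread within the rest, where the means of 86 windows had an SD of 6.77. A mean under 5 was found in 14 of these 86 windows and in 10 of the 18 windows of the clusters. Against all other chromosomes, with a mean of 6.49, the pooled clusters were 0.0843 higher. The first cluster lay below 6.49, and the second and the third lay above it. The pooled value depended on the last window of the third cluster (111 intervals, mean 27.9), singled out after its value was seen. Without that window the pooled clusters averaged 4.81 and the third cluster 3.67. Both values were below the 6.49 of the other chromosomes and the 6.8 of the whole list. The other zinc-finger stretches of chromosome 19 averaged 8.48 over 2042 intervals, 37.1% of them at 0. A level below the rest of the chromosome was therefore not particular to the clusters. Medians were 1.5, 2 and 0 in the 3 clusters and 3 in the rest. The upper quartile was 6 over the clusters and 16 in the rest.

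The share of intervals with score 0 did not follow the means. It was 37.3% (138 intervals) in the first cluster, 30.5% (118) in the second and 50.6% (351) in the third, against 47.2% over the whole list and 31.1% in the rest of the chromosome. The second cluster was therefore at the level of the rest in this respect, and the difference of 10.7 percentage points for the pooled clusters was about the size of the SD of 10.2 over the clusters. Without the third cluster it was 2.67 points. The first and the second cluster had instead more scores of 1 to 9 (49.2% and 51.4%) than the rest (35.3%). The third cluster went the other way, at 31.6%, and the whole list had 34.3%. High scores were few: 41 intervals of the 3 clusters (2.83%) scored 50 or more, against 3.05% over the whole list and 7.87% in the rest. Of these 41 intervals, 29 were in the third cluster.

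**Figure D3:**
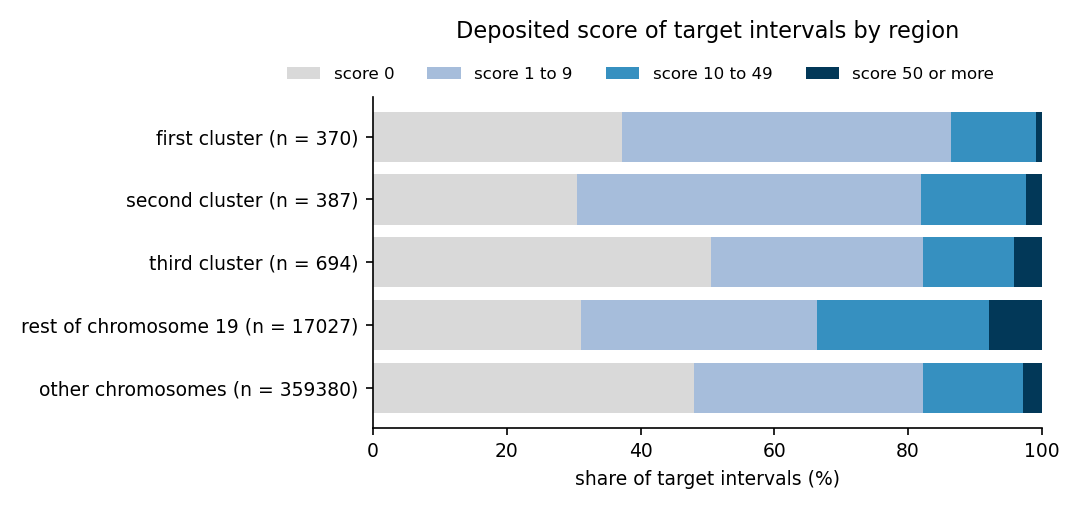
Share of target intervals (x axis, %) with a score of 0, 1 to 9, 10 to 49 and 50 or more in each cluster, in the rest of chromosome 19 and on all other chromosomes. Scores of 10 or more take less of each cluster than of the rest of chromosome 19, and score 0 is commonest in the third cluster (50.6%).

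Named zinc-finger genes differed widely in score. A KRAB A sized exon was matched in 75 genes, and the mean score of their matched intervals (4 to 12 per gene) had a median of 1.5 over 27 genes in the first cluster, 5.19 over 24 in the second and 1.25 over 24 in the third. In the first cluster no such gene exceeded 7.17 (ZNF431, range of single intervals 1 to 18). In the second cluster 4 reached 10 or more: ZNF480 with a mean of 26 (4 intervals, 7 to 55), ZNF813 with 18 (1 to 36), ZNF766 with 17 (7 to 36) and ZNF765 with 11.5 (2 to 29). The third had 4 as well, ZNF587B with 36.2, ZNF274 with 24.7, ZNF324 with 21.2 and ZNF544 with 13.3. ZNF587B owed its mean to a single interval of 122, as its median was 10, while the 4 intervals of ZNF324 lay between 18 and 23. At the low end, every matched interval scored 0 in 13 of the 75 genes (17.3%). The same held for 12 of the 39 other named genes of the clusters (30.8%). In the rest of chromosome 19 it held for 77 of the 798 named genes (9.65%). Among the 56 genes of the rest with a matched exon of KRAB A size it held for 3 (5.36%). These shares were not tested, and the number of matched intervals per gene was not equalised between the groups. The 13 were ZNF682, ZNF737, ZNF98 and ZNF99 in the first cluster, ZNF610 in the second, and ZNF667, ZNF471, ZFP28, ZNF470, ZIM3, ZNF549, ZIK1 and ZNF135 in the third. Genes of high and of zero score stood close together in the second cluster, where ZNF480 is the neighbour of ZNF610 among the named genes.

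The first gene block of the third cluster belonged to another family. NLRP genes code for proteins with a nucleotide-binding domain and leucine-rich repeats, and NLRP5 is known for its role in the egg. In 5 of them (NLRP11, NLRP4, NLRP13, NLRP8 and NLRP5) 78 of 82 matched intervals scored 0, and the highest of the others was 2. All 20 gaps of 172 nt in the third cluster lay within the spans of these 5 genes, and exons of 171 nt are known to code for the leucine-rich repeats of this family. This gap length was picked after its count was seen. It made up 5.45% of the short gaps there, against 0.384% (849) over the whole list.

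Other named genes had no matched exon of KRAB A size, and their mean scores ranged from 0 to 52.8. PPP2R1A in the second cluster, the scaffold subunit of the phosphatase PP2A, had a mean of 31.5 over 15 intervals (2 to 112). At the start of the first cluster LPAR2, a receptor for lysophosphatidic acid, had 26.2 over 5 intervals, ATP13A1, an ATPase of the endoplasmic reticulum, had 19.5 over 8, and GMIP had 7.86 over 22. Near the telomere in the third cluster, UBE2M, the enzyme that conjugates NEDD8, had 52.8 over 4 intervals (33 to 106). ZNF446 had 50.2 over 6 (14 to 79), and MZF1, a zinc-finger protein with a SCAN domain, had 45.1 over 7 (14 to 112). AURKC, a kinase known from meiosis, had 8.1 over 10 intervals. PEG3 and ZIM2, an imprinted pair, scored 0 in all 6 and all 4 matched intervals. The same was found for USP29 (4 intervals), DUXA (8) and ZSCAN4 (4), the last known from the earliest embryo.

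**Figure D4:**
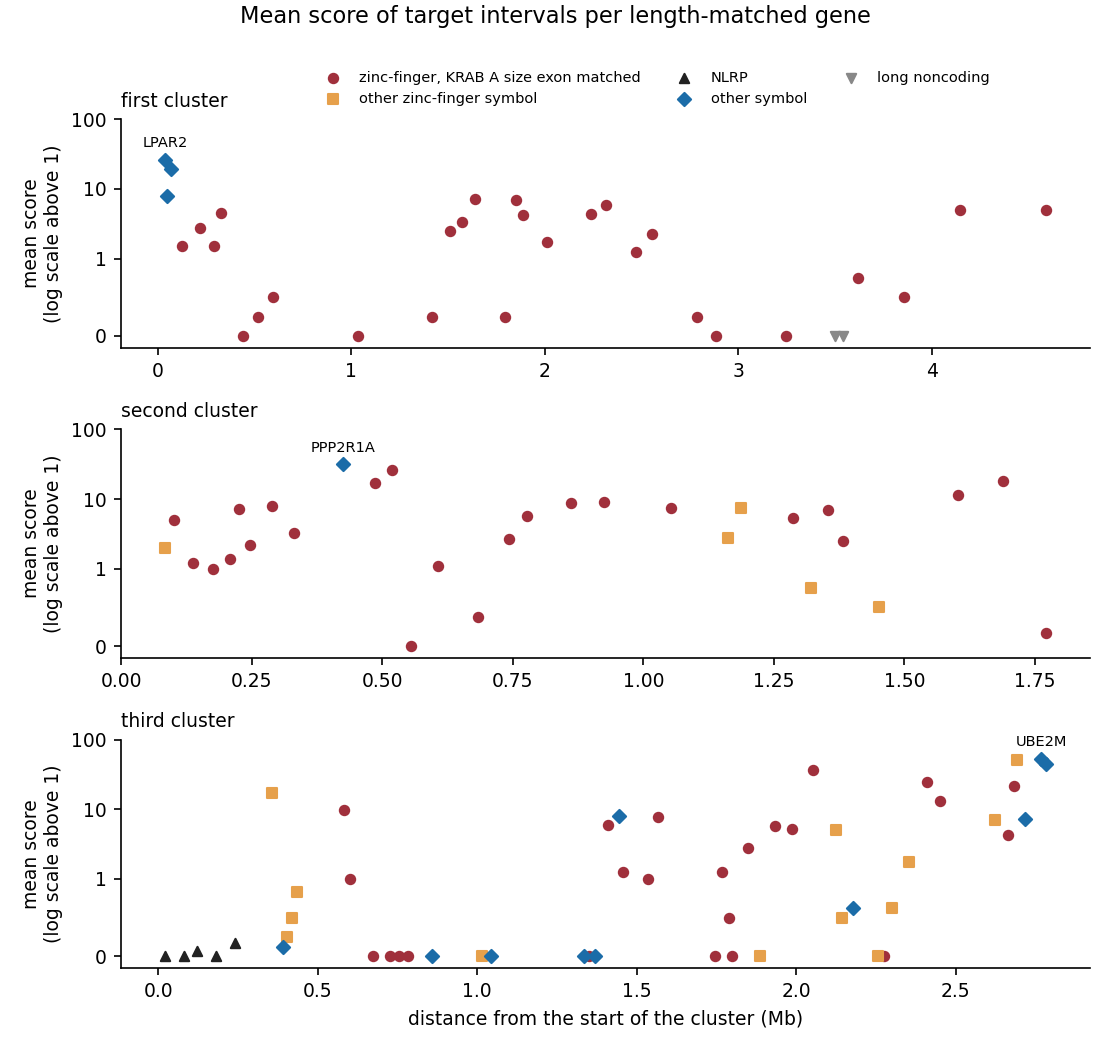
Mean score (y axis, linear up to 1 and logarithmic above) of the matched target intervals of each named gene against the distance of the gene from the start of its cluster in Mb (x axis); symbols give the gene class and the highest gene of each cluster is labelled. In the first cluster non-zinc-finger genes at its start are highest (LPAR2, 26.2), and in the third the highest genes lie at its end (UBE2M, 52.8).

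The position of high and low scores within a cluster was uneven. Of 18 windows with at least 20 intervals in the clusters, 1 had a mean score above the median window of the rest of chromosome 19 (12.1). The rest had 86 such windows, from 0.211 to 25.7. It was the last window of the third cluster, from 58800001 to 59100000, whose 111 intervals averaged 27.9 and of which 6.31% scored 0. No window of the rest exceeded it. Without that window, which was singled out after its value was seen, the third cluster had a mean of 3.67, and the difference of the pooled clusters from the rest was -8.53. The lowest window of the third cluster ran from 56800001 to 57300000, with a mean of 1.81. In the first cluster the highest window was its start, from 19700001 to 20200000, with a mean of 8.29 over 113 intervals, and it includes LPAR2, GMIP and ATP13A1. The lowest, from 22700001 to 23200000, averaged 0.0357, with 96.4% of its 28 intervals at 0. The second cluster was the most even, from 5.03 in its last window (53800001 to 54200000) to 9.88 in its first (52300001 to 52800000).

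**Figure D5:**
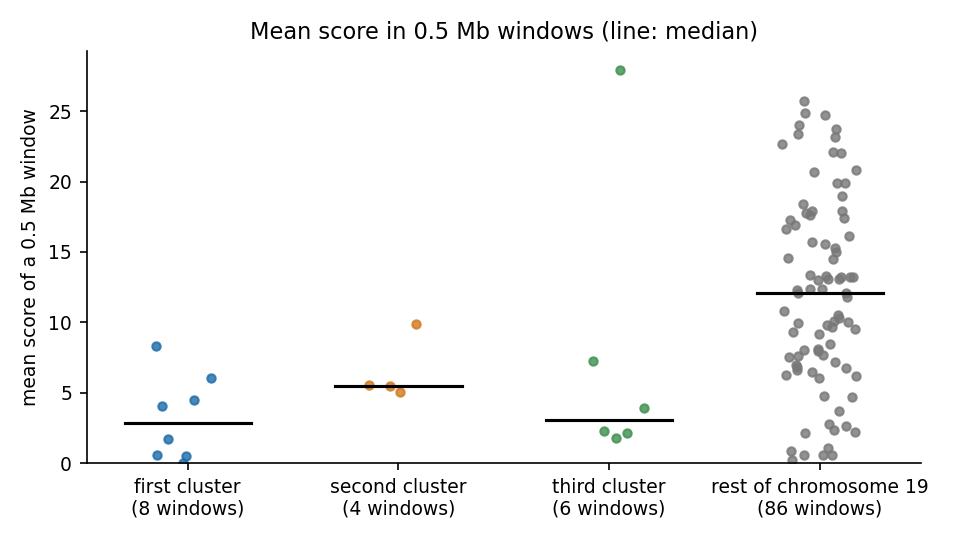
Mean score (y axis, no unit) of windows of 0.5 Mb, or the shorter end of a cluster, with at least 20 intervals; each point is a window and each line a median. The cluster windows lie under the median of 12.1 of the rest of chromosome 19, except the last window of the third cluster at 27.9.

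Intervals of score 0 in runs of at least 10 made up 17.3% of the first cluster, 6.46% of the second and 31.1% of the third, against 11.7% of the rest of chromosome 19. The rest also held a longer run, of 86 intervals, than any in the clusters. The longest of the first cluster held 33 consecutive intervals over 408 kb (22836237 to 23243973) and included ZNF99 and the long noncoding genes LINC01859 and LINC01858. That of the second held 13 intervals over 82.5 kb (53754688 to 53837146) and overlapped ZNF677. The longest of the third held 47 intervals over 388 kb (57290644 to 57678785) and took in ZIM2, PEG3, USP29, ZIM3 and DUXA. Runs of at least 10 intervals numbered 3 in the first cluster, 2 in the second and 8 in the third. The highest single intervals were the 57 at 19791365 to 19791464 and the 55 at 21688578 to 21688677 in the first cluster. In the second they were 112 at 52719148 to 52719256, matched to PPP2R1A, and 108 at 52705288 to 52705388. In the third they were 125, the highest value in the whole list, at 59065604 to 59065703, and 124 at 59058879 to 59058963.

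Where the lengths named an intron with an interval at each end, the annotated strand told its 5′ end from its 3′ end, which is the end that holds the branchpoint. Over 229 such introns in the clusters the mean score was 3.45 at the 5′ end and 5.09 at the 3′ end. The 3′ end was higher in 67 introns (29.3%), the 5′ end in 59 (25.8%), and they were equal in 103, of which 93 had 0 at both. In 3612 named introns of the rest of chromosome 19 the 3′ end was higher in 45.4% and the 5′ end in 26.1%, with means of 12.5 and 8.73. The ends were equal there in 1028 introns, of which 849 had 0 at both. By cluster, the 3′ end was higher in 15, 28 and 24 introns and the 5′ end in 17, 22 and 20. Named introns are those with short matched exons on both sides and do not stand for all introns.

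All 3 clusters were targeted more sparsely than the rest of chromosome 19. Against the whole list, at 13.9 kb per Mb, only the first cluster was sparser. Targets covered 7.88 kb per Mb in the first cluster, 20.2 in the second and 24.8 in the third, against 40 kb per Mb in the rest of chromosome 19. The 3 clusters together had 15.4 kb per Mb, and all other chromosomes had 13.5. Gaps over 10 kb made up 24.9%, 13.2% and 10.4% of the gaps in the 3 clusters, 5.12% in the rest and 11.5% over the whole list. The longest was 280 kb, in the third cluster. Exactly 100 nt was the width of 90.3% of intervals in the first cluster, 92.5% in the second and 94.1% in the third (1345 in all), against 87.7% over the whole list and 84.7% in the rest. The difference of 7.96 percentage points exceeded the SD of 1.91 over the clusters. Intervals of 70 to 95 nt numbered 30 (2.07%) in the clusters, against 3.08% over the whole list and 5.52% in the rest. The 12 intervals of 70 to 95 nt in the third cluster had a mean score of 41.8 and a median of 21.5. They include the 124 at 59058879 to 59058963, in the last window of that cluster. The 9 each of the first and the second cluster had means of 9 and 5.44. In the rest of chromosome 19 this width class also had the higher mean, at 21.8 against 12.3 for 100 nt. The median of gaps up to 1000 nt was 128 nt in the clusters and 142 nt in the rest, but the medians were equal for gaps up to 500 nt.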

How the data were processed

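The members and gene lists were chosen with earlier results of these data known. The authors' deposited list gives target intervals of the capture design (hg19, per the labels) and a score per interval whose unit is not given. Per the labels' protocols, intron ends of GENCODE 12 were targeted, exon-overlapping and highly transcribed parts were removed and repeats were left out. Bowtie2, TopHat2 and bedtools appear in the submitters' processing notes, with no step given for any of them. No count model was fitted, as the score is no stated read count, and depth is unknown.

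Coordinates are 1-based. Gaps were measured between neighbouring members. Exon and intron lengths came from GENCODE 29 (GRCh38), symbols from a gene name table. Planned names were limited to KRAB A and B pairs; naming by any exon, intron and exon was added after the data were seen, as were gene classes, partner exons, intron ends, gaps of 172 nt and counts of all-0 genes and runs in the rest. Introns up to 200 kb and gaps up to 1000 nt entered. A gene's score covers intervals within and beside its matched exons and intron. The regions named are, per cluster, the 2 highest intervals, the longest run of score 0, the highest and lowest window and the 3 highest pairs. The planned protein sequences (ZNF43, ZNF28, ZNF17 and TRIM28) were not used here. Matching was tested on simulated data. The tools were numpy 2.4.6 and pandas 2.3.3 under Python 3.11.15, with matplotlib 3.10.9 for plots.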

Additional observations from a re-analysis of the deposited data

How the results depend on the processing

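Of 57 recomputed values, 50 moved by less than the SD over clusters (counts: stayed within 1.5 times). This limit was wide for the share of score 0, with an SD of 10.2 percentage points. Without the third cluster that difference fell from 10.7 to 2.67 points and still counted among the 50. Set against all other chromosomes in place of the rest of chromosome 19, the mean score of the clusters was 0.0843 higher, score 0 was 6.15 percentage points rarer (-6.15), target density was 1.14 times as high, and 100 nt intervals were 4.86 points commoner. The median gap difference of -14 nt became 0 nt for gaps up to 500 nt. Paired gaps numbered 17 without the first cluster. Without the last window of the third cluster, an alternative chosen after seeing the data, the mean score difference from the rest of chromosome 19 was -8.53. The pooled mean of the clusters was then 4.81, against 6.49 on all other chromosomes. The cause of these shifts was not tested. No paired analysis was possible because the list holds no value per library and the labels give 1 group; leaving out replicates was not possible either.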

Other observations

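Intervals carry running numbers, and 29 of the 1480 numbers spanned by the clusters were missing. The first cluster missed 0 of 370, the second 1 and the third 28 of 722 (3.88%), close to the 3.98% of the rest of chromosome 19. All 28 lay at 9 places in the last 0.3 Mb of the third cluster, from 58800001 on. The 16 intervals that border the 10 places had a median score of 47.5, from 0 to 125. What the missing numbers stood for is not stated.

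Outside chromosome 19 the KRAB A and B pairs were most numerous on chromosome 7, with 9 of 46, followed by chromosome 1 with 5 and chromosome 5 with 4. Of the 80 annotated zinc-finger genes of chromosome 19 with such an exon pair, 45 (56.2%) were named at a pair of gaps in the list. Of the 55 paired gaps on chromosome 19, 47 were named, and the unnamed pairs of the clusters had lengths that several genes share. How many of the other 35 genes this covers, and why the remainder were not named, was not tested.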
